A study of Homo sapiens with 4 samples.

Results

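A set of 10 genes of cytokines and chemokines that tumor cells secrete was followed in MDA-MB-231 cells, an established triple-negative human breast cancer line, after long-term growth in cadmium. They were IL6, CXCL8, CXCL1, CXCL2, CXCL3, LIF, CSF2, IL11, IL1A and CCL20. The genes were taken by symbol from a table of 61541 Ensembl genes, and each of the 10 matched 1 gene. The cadmium-resistant cells were selected by serial passage in CdSO4 and kept at 10 µM for 10 or more passages. The control cells were matching untreated cells of the line, and whether they were passaged for as long is not stated. The sources used here name no other treatment or genetic change in either group. Each group had 2 RNA-seq libraries. The control libraries are called control 2 and control 3, after the header of the count table (the labels number the controls from 1, so which labelled control each one is cannot be told), and the others cadmium 1 and cadmium 2. The labels call the controls biological replicates and the cadmium libraries replicates, and do not say whether the latter came from separate selections, so the p-values below measure only the spread between these libraries. Between 51934729 and 61916007 reads were assigned to genes per library.

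These proteins carry inflammatory signals from tumor cells to their surroundings. CXCL8 (interleukin-8), CXCL1, CXCL2 and CXCL3 are chemokines that draw neutrophils through the receptors CXCR1 and CXCR2. IL6, LIF and IL11 signal through the shared receptor chain gp130, encoded by IL6ST, to JAK kinases and STAT3. CSF2 (GM-CSF) supports granulocytes and macrophages, IL1A (interleukin-1 alpha) acts as an alarm signal that itself induces many of the other genes, and CCL20 attracts cells that carry CCR6. Transcription of most of them is driven by NF-κB and AP-1, and several of their mRNAs are short-lived.

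The 4 CXC chemokine genes lie in a cluster of 359 kb on chromosome 4 (73740541 to 74099196, hg38). CXCL8 (ENSG00000169429, 73740541 to 73743716) and CXCL1 (ENSG00000163739, 73869393 to 73871308) are on the plus strand. CXCL3 (ENSG00000163734, 74036589 to 74038807) and CXCL2 (ENSG00000081041, 74097040 to 74099196) are on the minus strand. The other members are spread over 5 chromosomes. IL6 (ENSG00000136244) is on chromosome 7 at 22725884 to 22732002, CSF2 (ENSG00000164400) on chromosome 5 at 132073789 to 132076170, IL11 (ENSG00000095752) on chromosome 19 at 55364382 to 55370463 and LIF (ENSG00000128342) on chromosome 22 at 30240453 to 30246759. IL1A (ENSG00000115008) and CCL20 (ENSG00000115009) are both on chromosome 2, at 112773925 to 112784493 and at 227805739 to 227817564.

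Promoter sequences were taken from RefSeq (GRCh38.p14, the same assembly as hg38) for 9 of the 10 genes, all but LIF. The 150 bases before the start site are shown for the genes whose levels are described most closely below, to show how alike the first 3 are and where they differ from the others. Capitals mark exact matches on either strand to the NF-κB consensus or to the AP-1 site TGANTCA, which do not overlap here. The NF-κB consensus was searched as GGGRNNYYCC, where R is A or G, Y is C or T and N is any base.
CXCL1 (chr4:73869243-73869392, plus strand): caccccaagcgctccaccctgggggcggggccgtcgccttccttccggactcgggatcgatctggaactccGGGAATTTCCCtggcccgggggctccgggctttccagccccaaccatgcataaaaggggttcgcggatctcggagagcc
CXCL2 (chr4:74099196-74099345, minus strand): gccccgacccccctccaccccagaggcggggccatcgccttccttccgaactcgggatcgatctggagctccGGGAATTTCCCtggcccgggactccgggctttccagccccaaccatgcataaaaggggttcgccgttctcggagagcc
CXCL3 (chr4:74038690-74038839, minus strand): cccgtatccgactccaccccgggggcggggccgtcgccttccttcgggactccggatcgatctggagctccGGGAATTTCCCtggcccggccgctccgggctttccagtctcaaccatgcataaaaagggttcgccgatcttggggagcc
IL6 (chr7:22727050-22727199, plus strand): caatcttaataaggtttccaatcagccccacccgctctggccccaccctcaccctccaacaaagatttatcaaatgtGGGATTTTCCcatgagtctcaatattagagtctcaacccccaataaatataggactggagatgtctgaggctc
CXCL8 (chr4:73740419-73740568, plus strand): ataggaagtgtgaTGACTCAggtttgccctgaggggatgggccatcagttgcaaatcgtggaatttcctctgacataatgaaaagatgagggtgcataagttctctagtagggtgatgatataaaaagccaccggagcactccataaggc
IL11 (chr19:55370464-55370613, minus strand): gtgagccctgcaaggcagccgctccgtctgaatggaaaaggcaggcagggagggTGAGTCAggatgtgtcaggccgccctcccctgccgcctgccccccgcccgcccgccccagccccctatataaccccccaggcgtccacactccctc

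In CXCL1, CXCL2 and CXCL3 the NF-κB match began 79, 78 and 79 bases before the start site and the same 11 bases were in capitals in all 3, holding an overlapping match on each strand. Over the 150 bases CXCL1 was 90.0% identical to CXCL2 and 88.0% identical to CXCL3, and CXCL2 and CXCL3 were 86.7% identical. IL6 and CCL20 also held an NF-κB match, 73 and 79 bases before their start sites. The consensus was therefore found in 5 of the 9 windows of 300 bases (250 before to 50 after the start site), and in 11.3% of the 35116 RefSeq windows of that length. TGANTCA was found in CXCL8, IL11 and IL1A, beginning 137, 96 and 12 bases before the start site, and in 7.71% of all windows. The core of the metal response element, searched as TGCACNC or TGCGCNC on both strands, was found in CXCL8 and CXCL3 and in 29.6% of all windows. These are matches of letters in a short window and do not show binding. A site that departs from the exact letters was not counted. The stretch ggaatttcct in the CXCL8 window, close to the NF-κB consensus, was such a case.

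The main feature of the CXC chemokine genes was a single control library in which they were far more abundant than in the other 3. The normalized count of CXCL8 was 4484 in control 2 and 289 in control 3, against 572 and 472 in the cadmium libraries, with means of 2387 ± 2966 in the controls and 522 ± 70.9 with cadmium (SD, n = 2). Control 2 was thus 15.5-fold above control 3 and 8.59-fold above the cadmium mean, while the cadmium mean was 1.81-fold above control 3. The same order of libraries, with control 2 far above the rest and control 3 lowest, was seen in the other 3 genes. CXCL1 had normalized counts of 2255 and 168 in control 2 and control 3 and of 209 and 200 in the cadmium libraries. CXCL2 had 2017 and 135 in the controls and 251 and 241 with cadmium. CXCL3 was the least abundant of the 4, with 363 and 73.4 in the controls and 94.5 and 90.8 with cadmium. In each of the 4 genes both cadmium libraries lay between the controls and close to the lower one. The libraries measure RNA of whole cultures, so fewer cells that express a gene and less RNA per cell cannot be told apart.

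**Figure D1:**
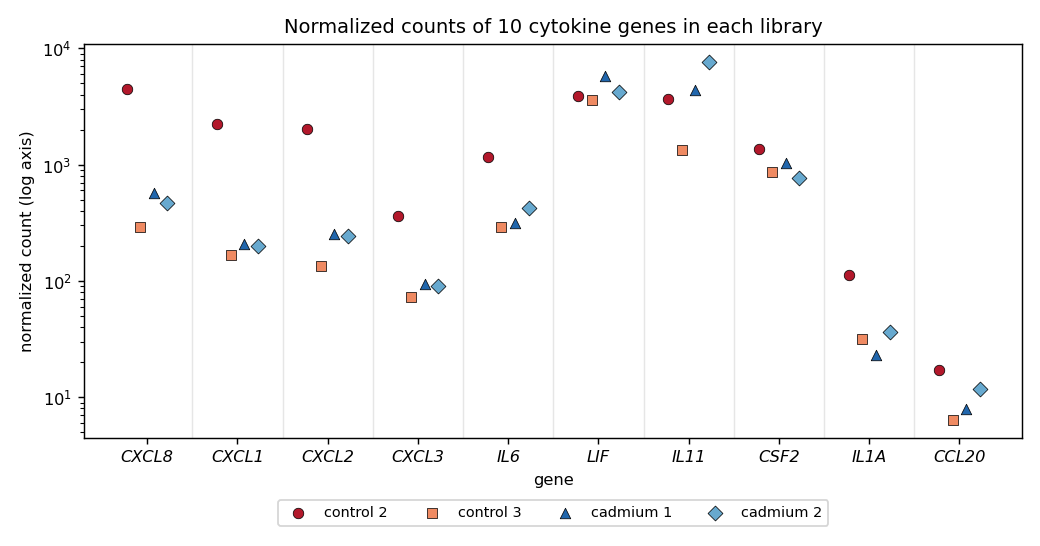
Normalized count (log axis) of each of the 10 cytokine genes in the 4 libraries, 1 symbol per library. Control 2 is the highest library for the 4 CXC chemokines, IL6, CSF2, IL1A and CCL20, and both cadmium libraries are above both controls for LIF and IL11 only.

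Other chemokine genes of the cluster on chromosome 4 were not detected. Of the 19 genes in this span, CXCL5 and CXCL6, which encode chemokines of the same kind, had no read in any library, and neither did PF4, PF4V1 and PPBP, the platelet chemokine genes. A count of 0 allows up to 3 reads, or 0.0485 to 0.0578 CPM (counts scaled to the library total) by library, by counting error only. The 40 nearest expressed genes around the cluster (averaging at least 100 normalized counts) had a median log2 ratio of control 2 over control 3 of 0.05, against 3.95 for CXCL8, 3.74 for CXCL1, 3.89 for CXCL2 and 2.29 for CXCL3. These neighbours lay between 56907876 and 77433388, a span far wider than the cluster. With 10 neighbours on each side, between 70688532 and 75941013, the median was -0.11. The difference between the controls in these 4 genes was therefore not seen in the median of their expressed neighbours over either span. CXCL1, CXCL2 and CXCL3 are paralogs, and reads with several alignments were dropped, so reads from stretches they share can be missing from their counts. The reference transcripts of CXCL1 and CXCL2 were 91.1% identical over aligned bases, and 5.33% of the 50-base windows of CXCL1 occurred unchanged in CXCL2. CXCL8 shared no such window with the other 3.

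Among the genes of the gp130 cytokines, IL6 followed the chemokines and the other two did not. IL6, a growth and survival factor for many tumors, had a normalized count of 1171 in control 2, 293 in control 3, and 315 and 423 in cadmium 1 and cadmium 2. Its controls differed 3.99-fold, and the cadmium mean was 1.26-fold above control 3. IL11, which acts on epithelium and bone, had normalized counts of 3651 and 1341 in the controls and 4370 and 7636 with cadmium. Both cadmium libraries were above both controls, but control 2 was 2.72-fold above control 3 and cadmium 2 was well above cadmium 1. LIF, known for keeping stem cells undifferentiated, had 3870 and 3578 in the controls and 5810 and 4171 with cadmium. It had the closest controls of the 10 genes, 1.08-fold apart, and its cadmium libraries were both higher. Reads of IL6 and LIF can be affected by genes on the other strand whose exons overlap theirs, since strand was not used in counting. These genes had at most 10 reads at IL6 and 84 at LIF in a library. Those are reads assigned to the overlapping genes, and they do not measure how many reads of IL6 or LIF were affected.

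CSF2, IL1A and CCL20 showed no separation of the groups. CSF2 had normalized counts of 1353 and 856 in the controls and 1038 and 772 with cadmium, so the groups overlapped. IL1A was a low-count gene, with 112 and 31.9 in the controls and 22.9 and 36.5 with cadmium, and control 2 was again apart from the other 3. CCL20 was near the limit of detection, with 18, 6, 8 and 12 reads in control 2, control 3, cadmium 1 and cadmium 2. The exact 95% Poisson interval of its count was 10.7 to 28.4 in control 2 and 2.20 to 13.1 in control 3, and these intervals overlap. They cover counting error only, and each mate of a read pair was counted, so the true uncertainty is larger.

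Differential expression was tested with DESeq2 across the whole table, and a gene was called at an adjusted p-value below 0.1. None of the 10 cytokine genes was called in either direction. Over the 19834 genes tested, 0.6% were called higher and 0.534% lower in cadmium, so the count of 0 among 10 is near this background. Only 1 member, IL11, had an unadjusted DESeq2 p-value below 0.05, and edgeR and limma-voom gave 0 such members. Over 19241 genes edgeR and limma-voom called 0, with 1422 and 1423 at an unadjusted p-value below 0.05 (DESeq2 had 1438). IL11 had a log2 fold change of 1.27 (standard error 0.50, DESeq2 adjusted p-value 0.366). LIF reached 0.42 (standard error 0.29, DESeq2 adjusted p-value 0.927). The other 8 had negative values, from -0.25 in CCL20 to -2.57 in CXCL1, with adjusted p-values of 0.806 or more. The log2 fold changes of CXCL8, CXCL1 and CXCL2 were -2.19, -2.57 and -2.13, with standard errors of 1.52, 1.47 and 1.51. IL6 had -0.99 with a standard error of 0.59 and CXCL3 had -1.24 with 0.70. For a single gene an exact permutation test over 2 against 2 libraries cannot go below a two-sided p of 0.333.

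The position of the cadmium libraries relative to the controls was counted for each gene. Both cadmium libraries were above both controls in 2 members (LIF and IL11), compared with 20.3% of all tested genes. They were below both controls in 0 members, compared with 19.9%. In 6 members (IL6, CCL20 and the 4 CXC chemokines) both lay between the controls, compared with 30.9% of tested genes. The median log2 fold change of the 10 genes was -1.11 while that of the 18871 genes averaging at least 10 normalized counts was -0.03.

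The direction of most members depended on which control was used. Without control 2, the log2 fold change was 0.85 for CXCL8, 0.28 for CXCL1, 0.86 for CXCL2, 0.34 for CXCL3 and 0.33 for IL6, where all 5 had been negative. The median of the members was then 0.41, and 9 of the 10 values were above 0. DESeq2 called CXCL8 (standard error 0.30, adjusted p-value 0.0396) and IL11 (2.16, standard error 0.67, adjusted p-value 0.0147), in a fit that called 7.45% of genes higher and 7.54% lower. Without control 3, the values were -3.11 for CXCL8, -3.47 for CXCL1, -3.05 for CXCL2, -1.98 for CXCL3 and -1.68 for IL6, with DESeq2 adjusted p-values of 1.53e-05 or less. That fit called 7 members lower (these 5, CSF2 at -0.59 and IL1A at -1.92), and over all genes it called 17.7% lower and 13.5% higher. The lone control in such a fit is assumed to vary like the cadmium pair, which was much closer than the control pair, and these p-values rest on that assumption. Control 2 and control 3 alone therefore gave opposite signs for the 4 chemokines and IL6. Without control 2, however, the values of CXCL1, CXCL3 and IL6 were smaller than their standard errors (0.42, 0.61 and 0.34). For these 3 genes that fit does not set a rise apart from no change. LIF and IL11 had positive values against either control. Those of LIF were close to their standard errors (0.48 with 0.42 without control 2, and 0.36 with 0.39 without control 3). The value of IL11 was 0.71 without control 3, 1.61 without cadmium 1 and 0.80 without cadmium 2, and it was called in none of these 3 fits.

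**Figure D2:**
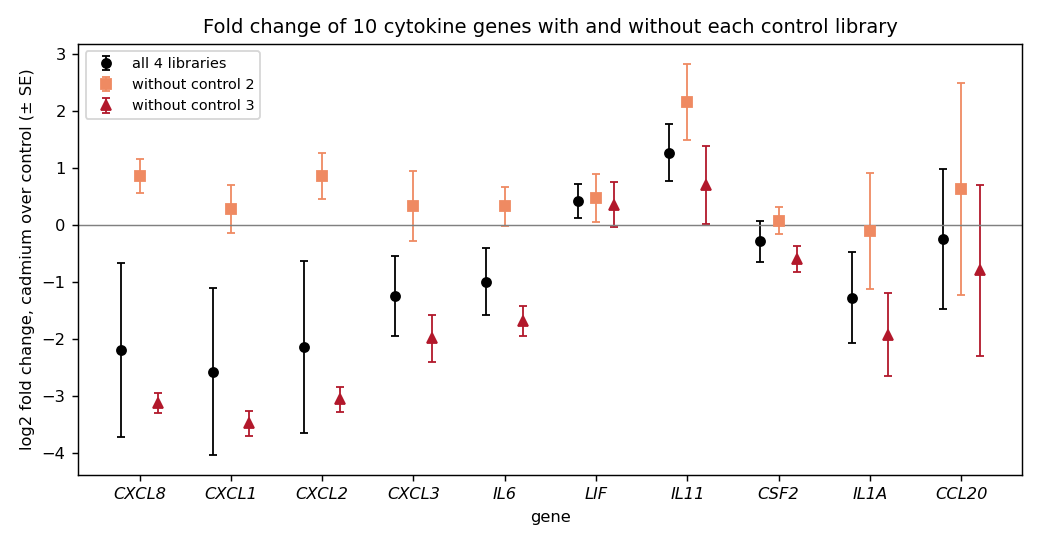
Log2 fold change of cadmium over control (points, with bars of 1 standard error) for each gene, from the fit with all 4 libraries and from fits without control 2 or without control 3. For the CXC chemokines and IL6 the values lie above 0 without control 2 and between -3.47 and -1.68 without control 3, while LIF and IL11 are above 0 in each fit.

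The spread within each group was then compared with that of other genes. For genes averaging at least 100 normalized counts, the median absolute log2 ratio between the controls was 0.39 over 12924 genes and 2.14 over the 8 members that reached this count. Between the cadmium libraries it was 0.11 over all genes and 0.35 over these members. Control 2 was at least 2-fold above control 3 (on counts plus 1) for 8 of the 10 members, against 9.69% of the 18871 genes with a mean of at least 10. It was at least 4-fold above for the 4 CXC chemokines, against 3.06%, and IL6 was just under this mark at a log2 ratio of 1.99. No test was made of this difference, since it rests on 1 library against another. CXCL1, CXCL2 and CXCL3 differed by only 1.04-fold between the cadmium libraries. The largest difference between them was in IL11, where cadmium 1 was 0.572 of cadmium 2.

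**Figure D3:**
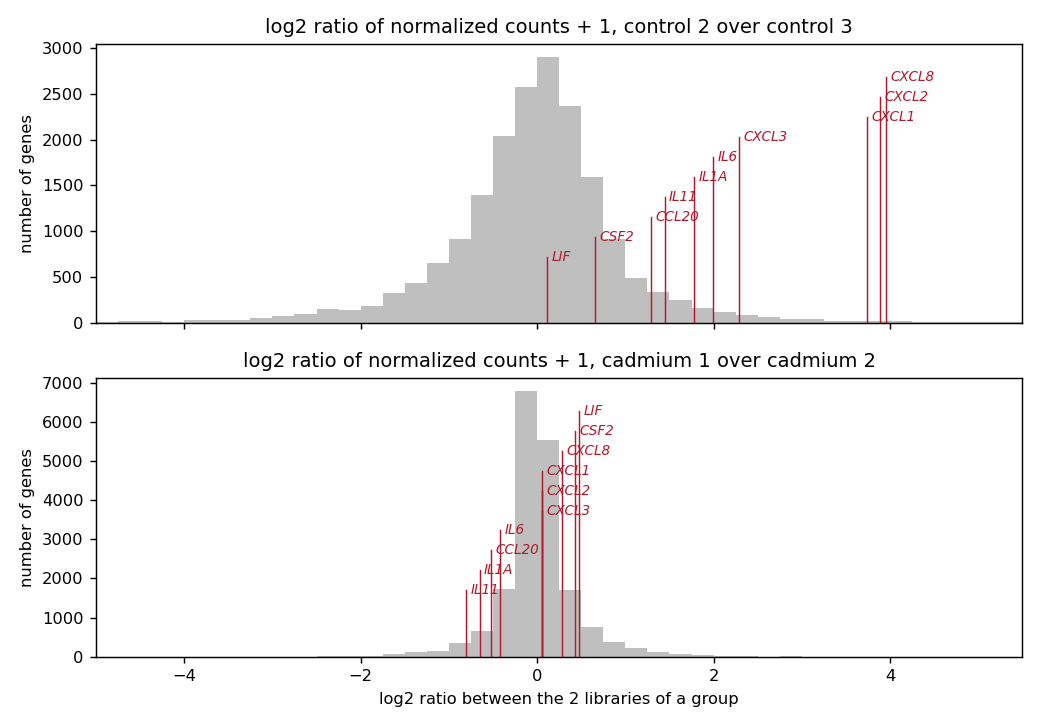
Histograms of the log2 ratio of normalized counts plus 1 between the controls (top) and between the cadmium libraries (bottom) for genes averaging at least 10 normalized counts, with a line at each cytokine gene and genes beyond the axis not shown. The CXC chemokines lie in the far upper tail of the control ratio, between 2.29 and 3.95. All 10 genes lie between -0.80 and 0.48 for the cadmium ratio.

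The level around each member was measured over 40 expressed neighbours, because neighbouring genes can differ together between libraries. Around IL6 the neighbours' median log2 ratio was -0.29 for the cadmium mean over the control mean and 0.06 for control 2 over control 3. Around IL1A these medians were -0.26 and 0.56, so its neighbours too were higher in control 2, though by less than the 1.78 of IL1A itself. Around IL11 and LIF the neighbours had medians of -0.06 and -0.03 for cadmium over control, and around CSF2 of -0.18. Around CCL20 it was -0.0026, and with 10 neighbours on each side it was 0.20.

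The order of the genes by abundance also differed between the libraries. Levels were compared between genes as CPM per kilobase of exon. In control 2 CXCL8 was first, at 34.2, followed by CSF2 at 29.3, CXCL1 at 28.3, CXCL2 at 24.6, IL11 at 23.3, LIF at 17.1 and IL6 at 9.66. In control 3 CSF2 was first, at 19.7, followed by LIF at 16.7 and IL11 at 9.07, while IL6, CXCL8, CXCL1 and CXCL2 were between 1.75 and 2.57. The controls therefore gave no stable order for these genes. In the cadmium libraries IL11 was first, at 29.8 and 51.0. LIF (27.4 and 19.3) and CSF2 (24.0 and 17.5) followed, and their ranges overlapped. CXCL8 came next at 4.66 and 3.77, just above IL6 at 2.78 and 3.65. The ranges of IL6, CXCL2 and CXCL1 overlapped in part, and CXCL3 was clearly lower at 0.777 and 0.732. IL1A and CCL20 were last in all 4 libraries. Summed over the 4 CXC chemokines, the level was 89.9 in control 2, 6.92 in control 3 and 11.5 and 10.2 with cadmium. For IL6, LIF and IL11 together it was 28.4 in control 3, against 59.9 and 74.0 with cadmium, and in control 2 it lay between these.

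Receptors for these cytokines were present for some members only. CXCR1, CXCR2, CCR6 and the decoy receptor gene ACKR1 had no read in any library. IL6ST was abundant, with normalized counts from 9599 to 12836, as was LIFR (3160 to 3882), whereas IL6R had only 63.4 to 92.5 and IL11RA 21.8 to 108. None of the 13 receptor genes was called, and the median log2 fold change of the 9 with a mean of at least 10 was -0.0010. At an unadjusted DESeq2 p-value below 0.05, 1 receptor gene (CSF2RB) was higher and 1 (IL1R1) lower. IL1R1, the signalling receptor of IL1A, had 1919 and 641 in the controls and 544 and 475 with cadmium (log2 fold change -1.33, DESeq2 adjusted p-value 0.323). Its co-receptor gene IL1RAP had 1389 and 657 against 743 and 617. CSF2RA, the ligand-binding chain for GM-CSF, had 2548 and 535 against 741 and 749, the same order of libraries as IL6. CSF2RB, the chain needed for signalling, had 2 and 4 reads in the controls and 18 and 34 with cadmium (adjusted p-value 0.353).

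NF-κB is a main activator of these genes, and 1 of its 19 regulators listed was called. BCL3 (ENSG00000069399, chromosome 19, 44747705 to 44760044), an atypical inhibitor protein that binds NF-κB subunits in the nucleus, fell from normalized counts of 3746 and 4055 to 1533 and 2176. This was a log2 fold change of -1.07 (standard error 0.30, DESeq2 adjusted p-value 0.0445). The controls were close in this gene, unlike in the CXC chemokines and IL6. The call was lost with edgeR (adjusted p-value 0.674) and limma-voom (0.669), which called 0 genes over the whole table. BCL3 stayed lower in cadmium whichever library was dropped. Its effect size (log2) was -1.13 after dropping control 2, -1.03 for control 3, -0.85 for cadmium 1 and -1.35 for cadmium 2. Such fits leave 1 library in a group, so only the effect size is given. BCL3 did not stay called when either cadmium library was dropped. NFKBIA, which encodes the classical inhibitor, had 7449 and 6276 against 4994 and 3910 (log2 fold change -0.62, adjusted p-value 0.562). MAP3K14, the kinase of the alternative pathway, had 1367 and 2171 against 2878 and 2363. CEBPD, a partner factor at IL6 and other acute-phase genes, had 5244 in control 2 and 738, 1032 and 973 in control 3, cadmium 1 and cadmium 2. The median log2 fold change of this list was -0.08, and 4 of its 19 genes were at least 2-fold higher in control 2 than in control 3, against 9.69% of all genes.

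Other known NF-κB targets were in part higher in control 2 as well. Of the 14 in the list, SOD2 was not matched and 11 had a mean of at least 10. None was called by DESeq2 (1, LCN2, was lower at an unadjusted p-value below 0.05), and 6 of the 11 were at least 2-fold higher in control 2 than in control 3, against 9.69% of all genes. LCN2, an iron-sequestering acute-phase protein, had 69.1 and 19.1 in the controls and 7.96 and 3.95 with cadmium (log2 fold change -2.89, DESeq2 adjusted p-value 0.269). CFLAR, an inhibitor of death receptor signalling, had 4900 and 2074 against 2377 and 2137. SDC4 and IRF1 had log2 fold changes of -0.44 each, with both cadmium libraries below both controls. ICAM1, an adhesion molecule named after its values were seen, had 13231 in control 2 and 1712, 2794 and 2592 in control 3, cadmium 1 and cadmium 2.

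The IL-1 pathway list held 2 genes with the pattern of the chemokines. IL1B, the secreted counterpart of IL1A, had normalized counts of 530 in control 2 and 24.5, 25.9 and 29.6 in control 3, cadmium 1 and cadmium 2. IL1RN, the natural antagonist of the IL-1 receptor, named after its values were seen, had 63.4 in control 2 and 0, 3.98 and 5.92 in the others. CASP1, which cleaves the precursor of interleukin-1 beta, had 109 and 269 in the controls and 390 and 456 with cadmium (log2 fold change 1.17, DESeq2 adjusted p-value 0.464). TLR4, the endotoxin receptor, had 2915 and 2626 against 5347 and 3828 (log2 fold change 0.73, adjusted p-value 0.416), and SIGIRR, an inhibitory receptor of the same family, had a log2 fold change of 0.70. None of the 19 genes was called by DESeq2, and the unadjusted p-value was below 0.05 in 3 (IL1B lower, CASP1 and TLR4 higher). The median log2 fold change was 0.08.

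Signalling genes downstream of the cytokines showed no call by DESeq2 among 15, and 0 had an unadjusted p-value below 0.05. SOCS3, a feedback inhibitor induced by STAT3, had 2719 and 6805 in the controls and 8139 and 5310 with cadmium, so it was lowest in the control library with most IL6. SOCS3 thus did not follow the level of IL6 across the libraries. SOCS1, named after its values were seen, was highest in control 2, with 259 against 63.8, 104.5 and 91.8 in control 3, cadmium 1 and cadmium 2. Of the 15 genes, 2 were at least 2-fold higher in control 2 than in control 3 and 3 were at least 2-fold lower. Over all genes these shares were 9.69% and 12.5%. PIM1 and CISH had log2 fold changes of -0.35 and -0.52. Among 12 genes of proteins that destabilize or bind cytokine mRNAs, 0 were called by DESeq2 (1, ZFP36L1, had an unadjusted p-value below 0.05) and 4 were at least 2-fold higher in control 2 than in control 3 (9.69% of all genes). These were ZFP36 (tristetraprolin), with 7547 and 2499 in the controls, its relative ZFP36L2, with 5446 and 2703, ZC3H12A (regnase-1), with 1905 and 489, and ARID5A, which instead protects IL6 mRNA, with 837 and 132 (named after its values were seen). ZFP36L1 went the other way, with 14085 and 23015 in the controls and 41305 and 29824 with cadmium (log2 fold change 0.94, DESeq2 adjusted p-value 0.305).

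**Figure D4:**
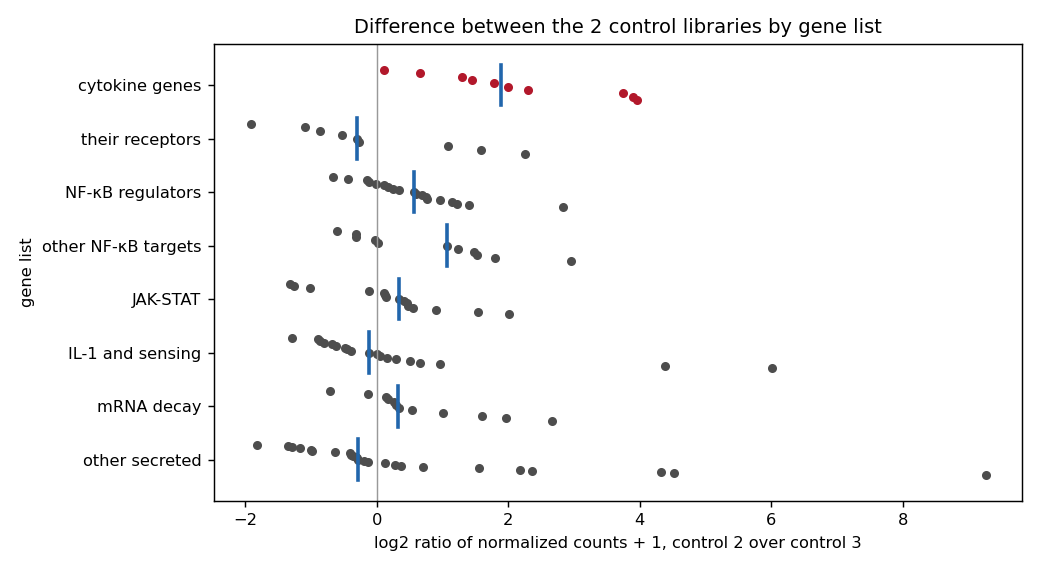
Log2 ratio of normalized counts plus 1 of control 2 over control 3 for each gene (points) of 8 lists, for genes averaging at least 10 normalized counts, with the median of each list as a vertical bar. The cytokine genes have a median of 1.88 and the other NF-κB targets 1.07. The medians are 0.57 for the NF-κB regulators, 0.34 for the JAK-STAT genes and 0.31 for the mRNA-binding proteins, and -0.30, -0.12 and -0.29 for the receptors, the IL-1 list and the other secreted factors.

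Other secreted factors were measured to see how far the pattern extended. Of 41 genes, 25 had a mean of at least 10, and CX3CL1 was the only one called. CX3CL1 (ENSG00000006210, chromosome 16, 57372477 to 57385044), a membrane-bound chemokine, fell from normalized counts of 948 and 323 to 187 and 150. This was a log2 fold change of -1.92 (standard error 0.53, DESeq2 adjusted p-value 0.0412). The call was lost with edgeR (adjusted p-value 0.674), which called 0 genes over the whole table. Whichever library was dropped, CX3CL1 stayed lower in cadmium. Its effect size (log2) shrank to -0.94 after dropping control 2. It was -2.50 for control 3, -2.09 for cadmium 1 and -1.77 for cadmium 2. CX3CL1 did not stay called without control 2 or without either cadmium library. VEGFA, the angiogenic growth factor, had 10700 and 13288 in the controls and 23024 and 19543 with cadmium (log2 fold change 0.83, adjusted p-value 0.155). CSF3 (G-CSF) had 30.3 and 23.4 against 43.8 and 108, and TNFSF15 had 465 and 89.3 against 572 and 704. The median log2 fold change of these genes was -0.08, and 6 of the 25 were at least 2-fold higher in control 2 than in control 3 while 5 were at least 2-fold lower. Over all genes these shares were 9.69% and 12.5%.

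The genes most like IL6 and CXCL8 were found by the distance between centred log2 profiles over the 4 libraries, among 12916 genes averaging at least 100 normalized counts. For IL6 they were LINC01444, BATF3, ATP8B1, SIM2 and BEND6, at distances of 0.0899 to 0.163. BATF3 had 1184 in control 2 and 272, 301 and 387 in control 3, cadmium 1 and cadmium 2. For CXCL8 they were NPTXR, FAM83H, L1CAM, PHETA2 and HTRA3, at 0.214 to 0.308, and L1CAM had 28132 against 1499, 2938 and 2476. Between members, CXCL2 was at a distance of 0.167 from CXCL8, and IL1A and CXCL3 were at 0.408 and 0.420 from IL6. With 4 libraries, many genes can have like profiles.

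The label of the cells was compared with marker genes. VIM, CD44, EGFR and KRT18 had normalized counts from 19225 to 51044, while ESR1 and PGR had at most 29.6. ERBB2 (4584 to 6773), EPCAM (662 to 2410) and CDH1 (107 to 615) were not absent. EPCAM was highest in control 2, with 2410 against 662 to 774 in the other 3, and CDH1 was lowest there, although control 3 had 615 against 119 and 169 with cadmium. Leukocytes are a major source of these cytokines. Their marker CD3E had no read, ITGAM had at most 2 reads, and PTPRC (CD45) had 1.89 in control 2 and 144 in control 3. CD14, a monocyte marker, was highest in control 2, with 221 against 133 in control 3 and 68.7 and 120 with cadmium. CSF1R was lowest in control 2, with 179 against 252 to 306 in the other 3. The summed normalized count of the leukocyte markers was 402 and 556 in the controls and 359 and 471 with cadmium. This sum was highest in control 3. PTPRC and CSF1R were higher in control 3 than in control 2, while CD14 was lower. CSF1R itself was highest in cadmium 2, at 306. Fibroblast markers summed to 1147 to 1675 (COL1A1 and PDGFRB mainly), and endothelial markers to 188 in control 2 and 695 to 867 in the other 3, nearly all of it PECAM1. The part of other cells in the values above was not tested beyond these markers.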

How the data were processed

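RNA was sequenced from 2 control and 2 cadmium-resistant cultures. The authors aligned read pairs with HISAT2 and deposited counts per gene from featureCounts 2.0.1 (Ensembl 105, hg38). Per the file headers each mate was counted as a read (70.6% to 71.5% of counts from 1 to 20 were even), strand was ignored and reads with several alignments were dropped, which lowers counts of paralogs. Of 61541 genes, 61369 were given a symbol, and 0 sample columns were left unused.

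Counts were fitted with DESeq2 1.42.0 (R 4.3.3; median-of-ratios size factors 0.940 to 1.06, Wald test, Benjamini-Hochberg adjustment over all genes tested, those averaging at least 7.65 normalized counts). Alternatives were edgeR 4.0.16 (quasi-likelihood), limma 3.58.1 (voom), other scaling, filters and thresholds, halved counts, and leaving out each library. Scripts were tested on simulated data. Ratios of normalized counts used a pseudocount of 1, and intervals and the limit of 3 reads cover counting error only. The members and all gene lists were chosen with earlier results of these data known. Named genes were the members, the genes called in a list, up to 4 genes of each list with the lowest unadjusted DESeq2 p-value, the receptors of members, and the 5 genes nearest in profile to IL6 and to CXCL8. Of the genes so named and the cell type markers, 2 are not reported here. Transcript and promoter identities were computed with Biopython 1.88.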

Additional observations from a re-analysis of the deposited data

How the results depend on the processing

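DESeq2 with TMM or upper-quartile factors, without independent filtering, with at least 10 counts in 2 libraries or with halved counts, edgeR and limma-voom each called 0 of the 10 cytokine genes, and their median log2 fold change stayed between -1.12 and -0.78. Leaving out each library in turn gave 0 to 2 members called higher, 0 to 7 called lower and medians from -1.80 to 0.41. The sign turned only without control 2, except that CCL20 also turned without cadmium 1 (0.01). The log2 fold changes ranged from -1.68 to 0.33 for IL6, -3.11 to 0.85 for CXCL8, -3.47 to 0.28 for CXCL1, -3.05 to 0.86 for CXCL2, -1.98 to 0.34 for CXCL3, -0.59 to 0.079 for CSF2 and -0.79 to 0.63 for CCL20. LIF (0.16 to 0.64), IL11 (0.71 to 2.16) and IL1A (-1.92 to -0.11) kept their sign when any 1 library was left out.

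The calls of BCL3 and CX3CL1 were lost with edgeR, with limma-voom and when tested against a change of 0.5 (log2). Each of these left 0 NF-κB regulators and 0 other secreted factors called lower. Neither gene stayed called without cadmium 1 or without cadmium 2, and CX3CL1 did not stay called without control 2. Those fits leave 1 library in a group. With at least 10 counts in 2 libraries, 1 other secreted factor, VEGFA, was called higher (log2 fold change 0.83, DESeq2 adjusted p-value 0.0940). When each library was left out, the calls higher and lower ranged over 0 to 3 and 0 to 3 for receptors, 0 to 3 and 0 to 8 for NF-κB regulators (median -0.36 to 0.26), 0 to 3 and 0 to 6 for NF-κB targets, 0 to 3 and 0 to 4 for JAK-STAT genes, 0 to 5 and 0 to 4 for the IL-1 list, 0 to 2 and 0 to 7 for mRNA-binding proteins (median -0.29 to 0.26) and 0 to 4 and 0 to 6 for other secreted factors. Over all genes the fit without control 2 called 7.45% higher and 7.54% lower, and that without control 3 called 13.5% and 17.7%. The cause was not tested. No paired analysis was possible because the columns of the controls are numbered 2 and 3 where the labels have 1 and 2. Depth limited CCL20 (6 to 18 reads) most.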

Other observations

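Several inflammatory genes, chosen after their values were seen, were far higher in control 2 than in the rest, like the CXC chemokines. CCL2, the main monocyte chemokine, had a normalized count of 612 in control 2 and 0, 1.99 and 0 in control 3, cadmium 1 and cadmium 2. IL32, a pro-inflammatory cytokine, had 2194 in control 2 and 94.6, 243 and 276 in the others. IL24, a cytokine of the IL-10 family, had 1127 against 55.3, 155 and 201. None of the 3 was called by DESeq2 with all 4 libraries, and these values come from 1 control library against the rest, so they were not tested.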
